A study of Homo sapiens with 14 samples.

Results

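HPRT1 and 9 other enzymes of purine nucleotide metabolism were followed in aortic endothelial cells, across a knockdown of CALCRL and a deletion of an enhancer near that gene. The 10 genes were chosen by name: HPRT1, APRT and ADK of the salvage routes, PPAT, GART, PAICS, ADSL and ATIC of de novo synthesis, and IMPDH1 and IMPDH2 of the guanine branch. The choice was made with earlier results of these data known, so shares of the 10 do not test an excess over all genes. All 10 were listed in both of the authors' deposited tables, which hold 11261 genes for the knockdown and 11835 for the deletion. HPRT1 was included because the guide given to the control cells of the deletion experiment is directed against HPRT.

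The cells were teloHAEC, a line of aortic endothelium kept growing by telomerase, and 14 RNA libraries fell into 4 groups. The group si-CALCRL (4 libraries) was reverse transfected with siRNA against CALCRL, the calcitonin receptor-like receptor gene, and the group si-scrambled (4 libraries) with scrambled siRNA; both were lysed after 24 h. The group CALCRL_enhancer_deletion (3 libraries) was electroporated with Cas9 complexes whose guides flank the enhancer, and the group CRISPR control (3 libraries) with Cas9 complexed to the HPRT guide; both were collected after 2 days. The labels describe no step that selects clones or edited cells, and give no share of edited cells. The labels give each deletion replicate its own electroporation, but not whether replicates were separate cultures, so the p-values measure the spread between these libraries. Libraries were made with a 3' kit that reads the end of polyadenylated transcripts.

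Purine nucleotides reach a cell's pool by 2 routes. De novo synthesis builds the ring on phosphoribosyl pyrophosphate (PRPP) until IMP is formed, and IMP is then turned into AMP or GMP. Salvage returns free bases and nucleosides to nucleotides at a lower energy cost: HPRT1 converts hypoxanthine and guanine, APRT converts adenine, and ADK phosphorylates adenosine. HPRT1 is known for its loss in Lesch-Nyhan disease, and is a common test locus for genome editing because cells without it survive thioguanine. In endothelium, ADK and the enzymes that make and break down adenosine also set the level of that vasoactive nucleoside.

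The genes lie on 9 chromosomes (GENCODE 29, GRCh38). Of the salvage genes, HPRT1 (ENSG00000165704) is on X, APRT (ENSG00000198931) on 16 from 88809339 to 88811944, and ADK (ENSG00000156110) on 10 from 74151185 to 74709303. Of the de novo genes, GART is on 21 from 33503931 to 33543491, ADSL on 22 from 40346500 to 40390463 and ATIC on 2 from 215311817 to 215349773. IMPDH1 is on 7 from 128392277 to 128410252, and IMPDH2 on 3 from 49024325 to 49029408. PPAT and PAICS are the only neighbours and start back to back on chromosome 4, PPAT from 56393362 to 56435615 and PAICS (ENSG00000128050) from 56435741 to 56464579. By RefSeq (GRCh38.p14), 136 bases separate the start of PPAT on the minus strand from that of PAICS on the plus strand. That stretch is shown with the 250 bases before the starts of APRT and HPRT1, since APRT rose and PAICS fell in the deletion comparison while PPAT and HPRT1 did not pass the test. Each is written 5′ to 3′ on its gene's strand, and the stretch between PPAT and PAICS on the plus strand. Capitals mark the GC box GGGCGG on either strand, a motif bound by SP1-family factors. Positions are chr4:56435616-56435751, chr16:88811929-88812178 (minus strand) and chrX:134459915-134460164 (plus strand).
PPAT to PAICS: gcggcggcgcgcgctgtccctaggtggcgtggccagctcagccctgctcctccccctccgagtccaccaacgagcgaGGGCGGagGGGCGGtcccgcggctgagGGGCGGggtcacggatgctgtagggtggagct
APRT: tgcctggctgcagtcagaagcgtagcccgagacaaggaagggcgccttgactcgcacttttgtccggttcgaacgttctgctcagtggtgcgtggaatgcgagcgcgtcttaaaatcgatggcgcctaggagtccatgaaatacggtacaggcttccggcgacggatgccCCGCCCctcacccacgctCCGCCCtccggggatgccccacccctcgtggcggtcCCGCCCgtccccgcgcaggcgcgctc
HPRT1: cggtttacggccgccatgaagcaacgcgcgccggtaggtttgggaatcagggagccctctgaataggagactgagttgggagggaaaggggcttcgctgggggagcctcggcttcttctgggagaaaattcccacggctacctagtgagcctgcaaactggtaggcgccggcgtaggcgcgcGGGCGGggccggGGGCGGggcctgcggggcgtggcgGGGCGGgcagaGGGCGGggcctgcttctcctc

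The stretch shared by PPAT and PAICS holds 3 GC boxes, the APRT promoter 3 and the HPRT1 promoter 4. In windows of 250 bases before the start, 7 of the 8 genes matched in the promoter table held a GC box (GART did not), against 42.6% of all 35116 windows. The windows of PPAT and PAICS overlap in that shared stretch, so its 3 boxes count for both genes. GC content of the 8 windows ran from 57.6% in ADK to 71.6% in PAICS and IMPDH1. The 42.6% was matched neither for GC content nor to the listed genes, so no excess of the motif is drawn from it. The E-box CACGTG, a palindrome bound by MYC and related factors, was found in the windows of PPAT and ATIC, 2 of 8, against 6.34% of all windows. IMPDH2 and ADSL had no entry. The RefSeq start used lay 599 bases from the GENCODE start for GART, 270 for IMPDH1 and 242 for ATIC. What was found in the windows of these genes therefore depends on the start used. These matches describe the letters of the windows and say nothing of binding.

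In the authors' deposited tables the mean normalised counts of the 10 genes ranged from 161 for PPAT to 796 for APRT in the siRNA experiment and from 180 for HPRT1 to 793 for APRT in the deletion experiment. Such a mean is taken over all libraries of an experiment. The mean of each group was computed from it and from the fold change, and values of single libraries were not used here. Counts at a transcript's end are not divided by length, and how well each end is read differs between genes, so no order of the genes is drawn from them. As a check of the cells, 9 of 10 endothelial marker genes were listed in each table (PECAM1 was not), with implied means that summed to 8249 and 8253 in si-scrambled and si-CALCRL and to 7993 and 6469 in CRISPR control and the deletion group. In the deletion comparison 2 of the 9, CDH5 and KDR, were past the threshold, both lower. Over all genes 15.8% were called, and 8.44% were called lower. Of 4 smooth muscle, 4 fibroblast, 4 leukocyte and 3 epithelial markers, ACTA2 and CD68 alone were listed. ACTA2 was at implied means of 193 and 172 in CRISPR control and the deletion group, and CD68 at 7.01 and 17.7. The part of these changes in the purine gene values was not tested. In bulk RNA, fewer cells of a type and less RNA per cell cannot be told apart.

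**Figure D1:**
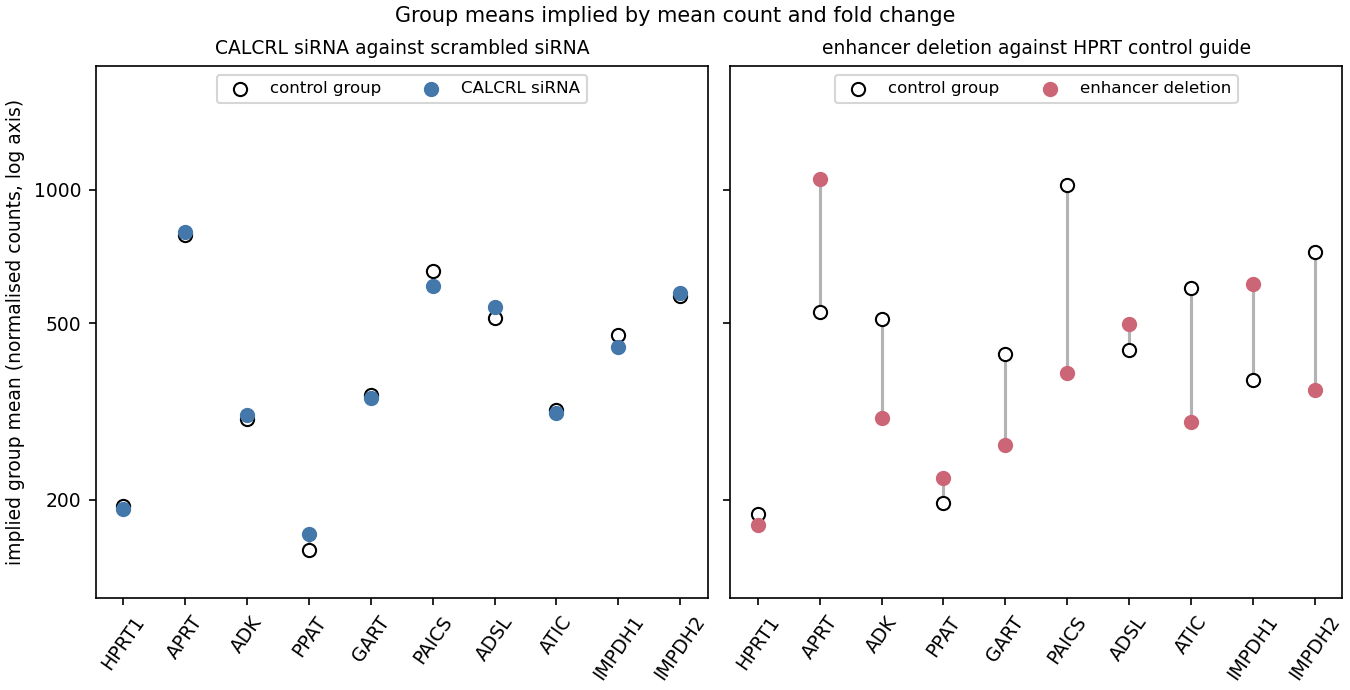
Implied mean of each group (normalised counts, log axis) for the 10 purine genes, control groups as open circles and treated groups as filled circles, siRNA on the left and deletion on the right. The paired circles lie close together for siRNA, and are farthest apart for PAICS in the deletion comparison (1023 in the control group, 386 after deletion).

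HPRT1, the gene aimed at by the control guide, had an implied mean of 186 normalised counts in CRISPR control and 175 after enhancer deletion. In log2 units the authors' deposited table put this change at -0.09 (SE 0.50), with an adjusted p of 0.931 by their DESeq2 Wald test. That places the deletion group at 94.1% of the control (95% interval 47.4% to 187%). A lower HPRT1 level in the control cells would appear as a value above 100%. The standard error of HPRT1 was 1.44 times the median of the 201 genes nearest in mean count. The count is taken at the 3' end and the cut position was not used here, so the HPRT1 level does not check whether the guide cut. In the siRNA experiment, where HPRT was not targeted, HPRT1 had implied means of 194 in si-scrambled and 191 in si-CALCRL, and the authors' deposited table put its log2 change at -0.02 (SE 0.16). The difference between the 2 experiments was -0.07 (95% interval -1.10 to 0.97; adjusted p = 0.953).

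Loss of flanking DNA is a known by-product of Cas9 breaks, so the genes beside HPRT1 on the X chromosome were read too (GENCODE 29, GRCh38; HPRT1 spans 134460153 to 134520513 on the plus strand). Of the 5 nearest listed protein-coding genes on either side, 0 of 10 reached an adjusted p under 0.05 in the authors' deposited table, against 15.8% of the 11830 genes with a p-value, and 0 had an unadjusted p below 0.05. PHF6, a chromatin-associated zinc finger protein gene ending 31.4 kb before HPRT1, had the highest value of the 10, 0.54 (SE 0.32, adjusted p = 0.245) by the authors' deposited table. With a trend on the GC content of the whole transcript removed, PHF6 was at 0.86 and past the threshold (adjusted p = 0.0490). FAM122B, 249 kb on the other side, was at 0.00 (SE 0.36) by the authors' deposited table. GPC3 had the lowest value, -1.38, with a standard error of 1.47 at an implied 15.0 and 5.76 normalised counts. FAM127A and FAM127C belong to a family of near-identical genes and are uncertain. Among 20 genes, 10 on either side, 0 passed, against 15.8% of all genes (2 had an unadjusted p below 0.05, against 29.7%). Under siRNA 0 of the 8 nearest that were listed passed, against 3.46% of all genes, with a median of 0.12.

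**Figure D2:**
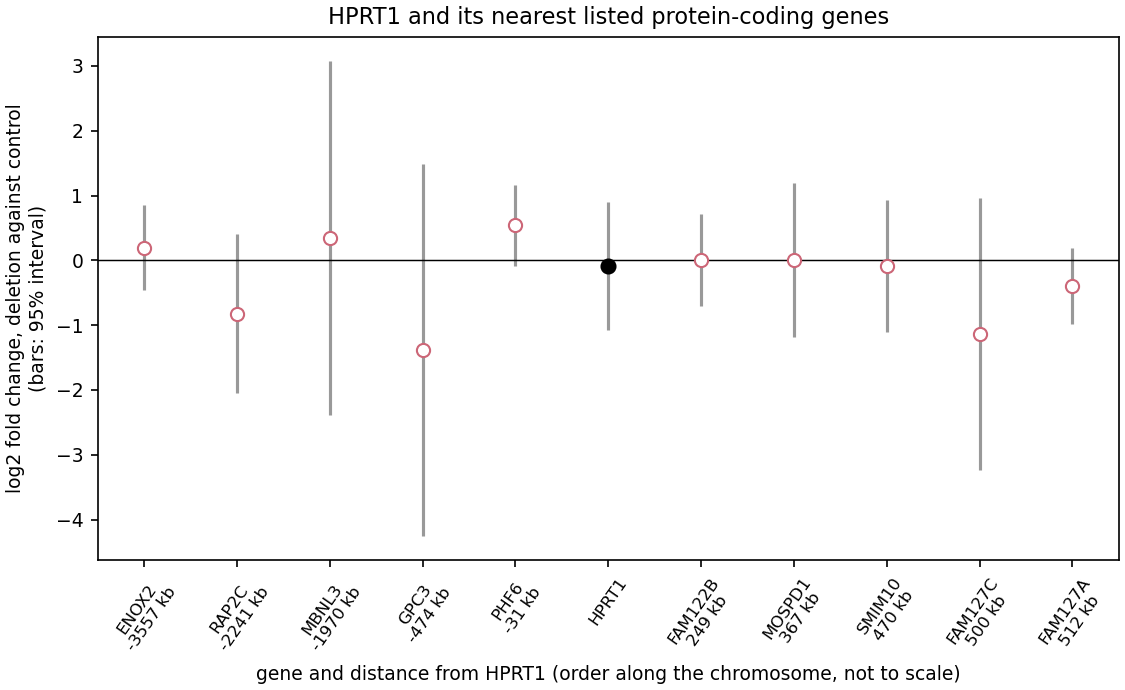
Log2 fold change of deletion against control (points) with 95% intervals (bars) for HPRT1 (black) and the 5 nearest listed protein-coding genes on either side, in their order along the chromosome. Each interval includes 0.

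CALCRL knockdown left no change past the test in any of the 10 purine genes. By the authors' deposited table none of the 10 passed the threshold of 0.05 on the adjusted p (0 of 10), against 3.46% of all 11261 genes, and 0 had an unadjusted p below 0.05, against 12%. None passed under any of the 7 alternative settings either. The log2 fold changes ran from -0.12 for PAICS to 0.12 for PPAT, 5 above 0 and 5 below, with a median of 0.00, as over all genes. ADSL was the most precisely measured, at 0.08 (SE 0.09) by the authors' deposited table. Its 95% interval ran from 93.2% to 120% of the scrambled control. On the log2 scale HPRT1 had the widest interval, which ran from 79.3% to 122%. CALCRL itself was at -1.56 (SE 0.17) by the authors' deposited table, and at -1.47 (SE 0.43) in that of the deletion.

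By role, the salvage genes APRT and ADK had implied means of 789 and 305 normalised counts in si-scrambled and 803 and 311 in si-CALCRL. For the de novo genes PPAT, GART and PAICS the implied means were 154, 344 and 658 in si-scrambled and 167, 339 and 606 in si-CALCRL. ADSL went from 514 to 545 and ATIC from 319 to 314. The 95% interval of each of these changes included 0. IMPDH1 had 471 in si-scrambled and 442 in si-CALCRL, and IMPDH2 had 575 and 585. The tables were normalised separately, so these levels are not set against those of the deletion experiment.

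After the enhancer deletion, 3 of the 10 genes passed the authors' test: PAICS and GART fell and APRT rose. This is 3 of 10 against 15.8% of all genes, with 2 lower against 8.44% and 1 higher against 7.4%. Without adjustment, 7 of 10 had a p below 0.05, against 29.7% of all genes. These shares were not matched for mean count. The median standard error was 0.41 over all genes, and 0.25 to 0.35 among genes near the 10 in mean count. No excess among the 10 is therefore drawn from the shares. The median log2 fold change of the 10 was -0.38, against 0.00 over all genes, with 6 below 0 and 4 above. Under a Student t reference, or with the statistics divided by their robust SD, 0 of all 11830 genes and so 0 of the 10 passed. In these settings 3 and 1 of the 10 had an unadjusted p below 0.05. The shares of all genes at that level were not computed for them, so nothing is drawn from these counts. Under Holm adjustment 0 of the 10 passed, against 1.27% of all genes.

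**Figure D3:**
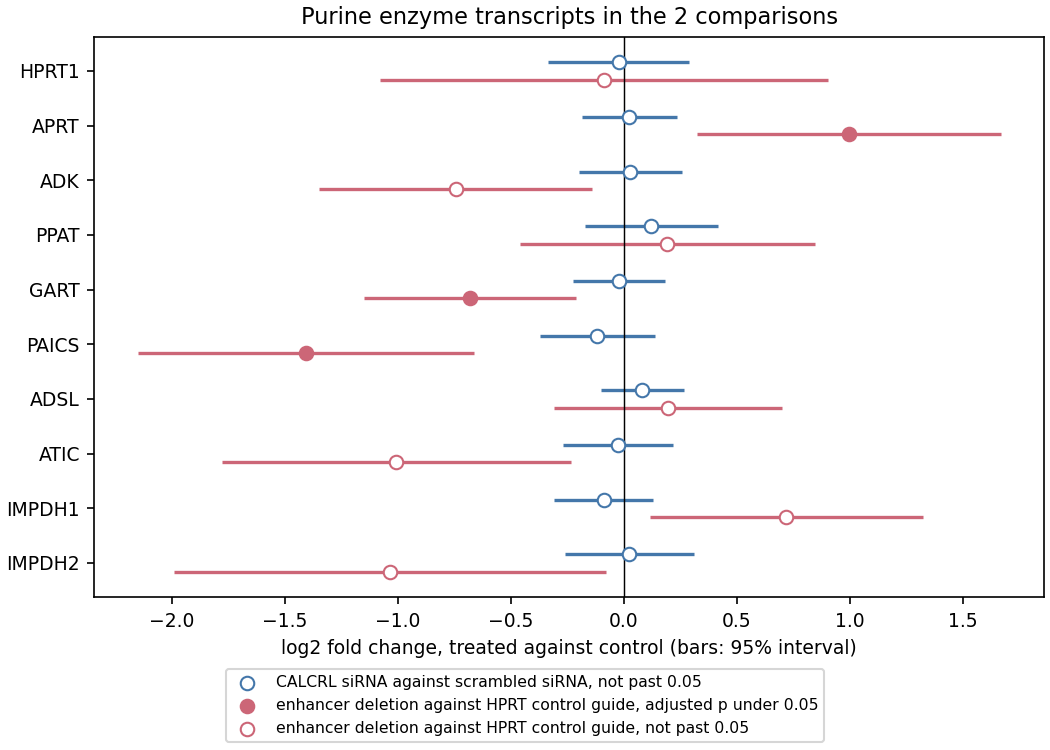
Log2 fold change with 95% interval for each purine gene, siRNA in blue and enhancer deletion in red, filled where the adjusted p was under 0.05. All siRNA points lie between -0.12 and 0.12, and the deletion points between -1.41 and 1.00.

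Among the de novo enzymes, PAICS showed the largest change. PAICS encodes a bifunctional enzyme that carboxylates the aminoimidazole ribotide and joins it to aspartate. Its implied mean was 1023 normalised counts in CRISPR control and 386 after deletion, or 37.7% of the control (95% interval 22.5% to 63.2%). This is -1.41 in log2 units (SE 0.38, adjusted p = 0.00497) by the authors' deposited table. The value was -1.23 with the GC trend of the last 500 bases removed and -1.24 with that of the whole transcript, and past the threshold in both (adjusted p = 0.0179 and 0.0161). Its standard error was 1.49 times that of genes with a like mean count. GENCODE lists pseudogenes named for PAICS (7), IMPDH1 (7), HPRT1 (3) and PPAT (2), with 0 in either table, so for these 4 genes reads shared with a pseudogene are uncertain.

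GART encodes the trifunctional enzyme of earlier and intermediate steps, and a shorter transcript from the same gene, ended within an intron, encodes its first function alone. Counts per gene do not separate these. Implied means were 426 in CRISPR control and 266 after deletion, or 62.4% (95% interval 45.1% to 86.3%). By the authors' deposited table GART was at -0.68 (SE 0.24, adjusted p = 0.0343). With either GC trend removed it was at -0.51 and -0.53 and did not pass (adjusted p = 0.138 and 0.118). The GC content of GART was read from the annotated transcript of 2149 bases, the one with the longest 3' UTR (756 bases). It was chosen by that length and not by its level. The values with a GC trend removed may thus rest on the end of the shorter form, not that of the trifunctional one.

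ATIC, which performs the final formylation and ring closure to IMP, lay close to the threshold without passing it. Its implied means were 601 and 299, and it was at -1.01 (SE 0.40) by the authors' deposited table (adjusted p = 0.0614). The remaining de novo genes, PPAT and ADSL, were above 0 without passing. PPAT, the amidotransferase of the committed step, had implied means of 196 and 224 and was at 0.19 (SE 0.33) by the authors' deposited table (adjusted p = 0.742). ADSL, the lyase that acts once before IMP and again on the way to AMP, had implied means of 434 and 497 and was at 0.19 (SE 0.26) by the authors' deposited table (adjusted p = 0.655). The annotated end of ADSL overlaps SGSM3 on the same strand, so its counts are uncertain. With the GC trend of the last 500 bases and then of the whole transcript taken out, PPAT was at 0.42 and 0.46 and ADSL at 0.37 and 0.32, and neither passed. PPAT and PAICS, whose starts share the stretch printed above, thus had log2 fold changes of 0.19 and -1.41 in the same libraries. The difference between these genes was not tested, since the covariance of their counts is unknown without values per library.

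Of the salvage genes, APRT rose from an implied mean of 529 normalised counts in CRISPR control to 1056 after deletion, or 199% of the control (95% interval 125% to 318%). In log2 units this is 1.00 (SE 0.34, adjusted p = 0.0306) by the authors' deposited table. APRT was at 0.46 and 0.51 with either GC trend removed (last 500 bases, then whole transcript), and then did not pass (adjusted p = 0.409 and 0.336). ADK had implied means of 511 and 305 and was at -0.74 (SE 0.31) by the authors' deposited table (adjusted p = 0.0781). With the GC trends taken out in the same order, ADK was at -0.41 and -0.51 (adjusted p = 0.411 and 0.278). HPRT1 was near 0, as described.

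The IMP dehydrogenases, which catalyse the rate-limiting step from IMP toward GMP, lay on opposite sides of 0 without passing the test. IMPDH1 had implied means of 372 in CRISPR control and 612 after deletion and was at 0.72 (SE 0.31) by the authors' deposited table (adjusted p = 0.0885). IMPDH2, the form usually induced in dividing cells, had 723 and 353 and was at -1.03 (SE 0.49) by the authors' deposited table (adjusted p = 0.130). The standard error of IMPDH2 was 1.88 times that of genes with a like mean count, the highest ratio of the 10. With the GC trend of the last 500 bases removed IMPDH1 was at 0.07, and IMPDH2 at -1.22. With that of the whole transcript removed they were at 0.26 and -1.08.

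The last 500 bases of the transcripts differed widely in GC content, from 27.6% in ADK to 63.2% in IMPDH1, and over all genes of the deletion table the log2 fold change rose with that content (Spearman 0.309 across genes, which are not independent replicates and share their libraries). APRT (60.0%) and IMPDH1, the 2 highest of the 10 in log2 fold change, both lay in the highest of 10 groups of genes by GC content, where the median over all genes was 0.62. In that group 18.5% of genes were called higher and 2.33% lower. HPRT1 (29.8%) and ADK lay in the lowest group, where the median was -0.27. GART, PAICS and ADSL lay together in group 4 from the bottom (median -0.13), and were at -0.68, -1.41 and 0.19. After either GC trend was removed PAICS was the only one of the 10 to pass, against 12.2% (last 500 bases) and 13.3% (whole transcript) of all genes. HPRT1 was then at 0.20 and 0.11, on the other side of 0. For every gene the transcript was chosen by the length of its 3' UTR (5041 bases for PAICS), not by its level. The values with a GC trend removed, that of PAICS included, may thus rest on an end other than the one read.

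**Figure D4:**
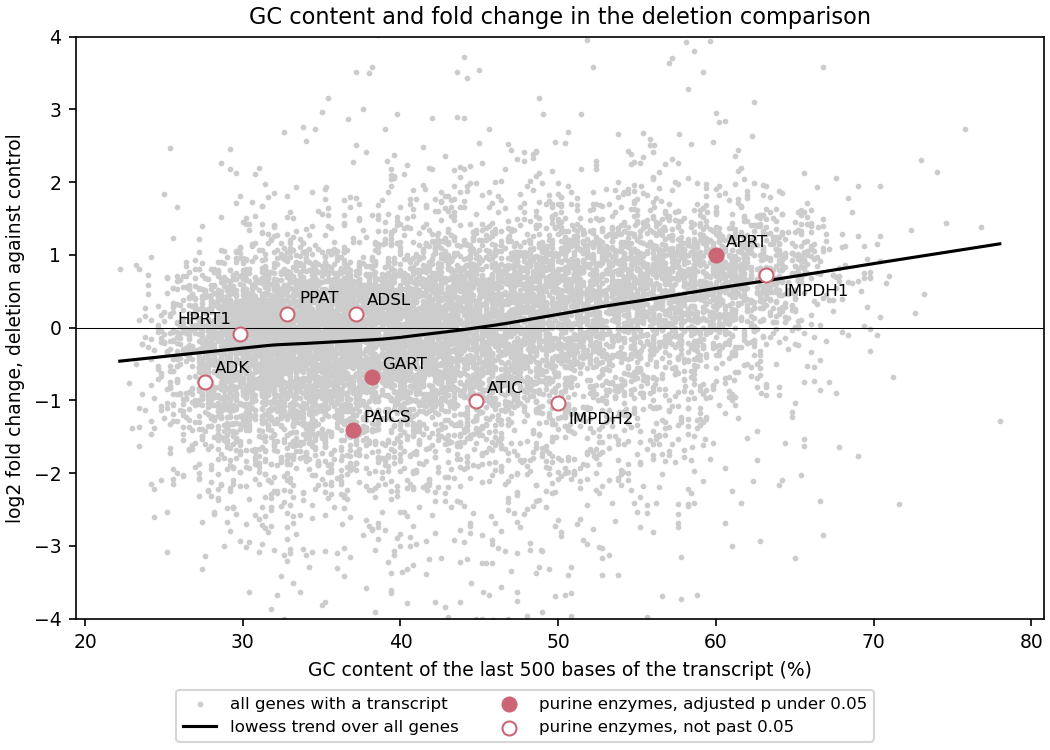
Log2 fold change of deletion against control by GC content of the last 500 bases of the transcript, for all genes (grey; 89 genes lie beyond the axis limits of -4 and 4), with their lowess trend (black line) and the 10 purine genes (red). APRT and IMPDH1 lie at the GC-rich end on or above the trend, and PAICS, ATIC and IMPDH2 lie below it.

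The effects of the 2 experiments, which share no libraries, differed past the threshold for 2 of the 10 genes, against 13.7% of the 10891 genes tested in both. PAICS was lower after deletion than after siRNA by a log2 difference of -1.29 (95% interval -2.08 to -0.50; adjusted p = 0.0183), and APRT was higher by 0.97 (0.27 to 1.68; adjusted p = 0.0499). GART was at -0.66 (adjusted p = 0.0682), and the difference for it did not pass. For ADK (-0.77), ATIC (-0.98), IMPDH1 (0.81) and IMPDH2 (-1.06) the adjusted p lay between 0.0756 and 0.147. For PPAT the difference was 0.07 (95% interval -0.64 to 0.79), and for ADSL 0.11 (adjusted p = 0.831). Without adjustment, 7 of the 10 differences had a p below 0.05, against 28.3% of all genes. That share was not matched for mean count either, so no excess is drawn from it. The APRT difference was 0.45 and 0.50 with the GC trend of the last 500 bases or the whole transcript taken out, and did not pass (adjusted p = 0.447 and 0.384). It also did not pass when fold changes were centred on the median of genes with at least 100 normalised counts (0.93, adjusted p = 0.0626; 1 of the 10 then passed, against 13.5% of all genes). Delivery, time after treatment and control differed between the experiments along with the target, and these cannot be told apart.

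Other genes of purine metabolism were read from lists of the pathway's steps, 34 genes beside the 10. In the deletion comparison 6 of the 33 tested passed, 3 higher and 3 lower, which is 18.2% against 15.8% of all genes. In the siRNA comparison 1 of 34 passed, against 3.46%.

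Of the 8 genes that lead from ribose phosphate to IMP, PAICS and GART were the 2 that passed after deletion, against 15.8% of all genes, and the list median was -0.10. PRPS1 and PRPS2, which make PRPP, were at -0.07 (SE 0.28) and -0.13 (SE 0.41), and PFAS, the amidotransferase between the GART steps, at 0.17 (SE 0.28), in the authors' deposited table. In the salvage list 2 of 7 passed, against the same share, and the median was -0.58. Beside APRT this was PNP, purine nucleoside phosphorylase, which frees hypoxanthine and guanine for HPRT1. PNP fell to 49.9% of the control, from an implied 1422 to 709 normalised counts. By the authors' deposited table it fell by 1.00 on the log2 scale (SE 0.32, adjusted p = 0.0193). In the list of branches from IMP, 0 of 5 passed, against the same share (2 had an unadjusted p below 0.05, against 29.7% of all genes).

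Of 7 kinases that convert purine mono- and diphosphates, 2 passed, both higher, against 15.8% of all genes called and 7.4% called higher, with a list median of 0.18. NME1, a nucleoside diphosphate kinase, was at 1.02 (SE 0.29, adjusted p = 0.00689), with implied means of 940 and 1913, in the authors' deposited table. NME1 has a near-identical neighbour, NME2, that was not listed, so its counts are uncertain. NME4, the mitochondrial form, was at 1.17 (SE 0.38, adjusted p = 0.0204) in the authors' deposited table. NME4 lost the threshold with either GC trend removed (0.82 and 0.74).

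Of 11 breakdown and deamination genes, 2 passed in opposite directions, against 15.8% of all genes called. GMPR, which returns GMP to IMP, was at -1.73 (SE 0.48, adjusted p = 0.00631), and SAMHD1, which hydrolyses deoxynucleoside triphosphates, was at 0.69 (SE 0.25, adjusted p = 0.0426), in the authors' deposited table. SAMHD1 lost the threshold when centred (adjusted p = 0.0620). Among 6 genes of extracellular purine handling 1 passed, NT5E, against the same 15.8%. It encodes CD73, the endothelial surface enzyme that makes adenosine from AMP. NT5E fell from an implied 1213 to 611 normalised counts (by the authors' deposited table -0.99, SE 0.23, adjusted p = 0.00108). In the siRNA comparison the 1 gene that passed was AK4, a mitochondrial adenylate kinase known to be induced by hypoxia, at -0.66 (SE 0.15, adjusted p = 0.00131) in the authors' deposited table, with implied means of 188 and 119. AK4 did not pass under the Student t reference or Holm adjustment (adjusted p = 0.374 and 0.198).

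Pyrimidine genes, read for comparison, gave 2 of 12 past the threshold after deletion, against 15.8% of all genes, and a median of -0.04. CMPK1, the UMP and CMP kinase, was at -1.53 (SE 0.35, adjusted p = 0.000813), and UPP1, uridine phosphorylase, at 1.21 (SE 0.37, adjusted p = 0.0152), in the authors' deposited table. CAD, the enzyme of the opening pyrimidine steps, did not pass, at 0.70 (SE 0.28, adjusted p = 0.0668) by the authors' deposited table. Under siRNA 0 of the 12 passed, against 3.46% of all genes.

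**Figure D5:**
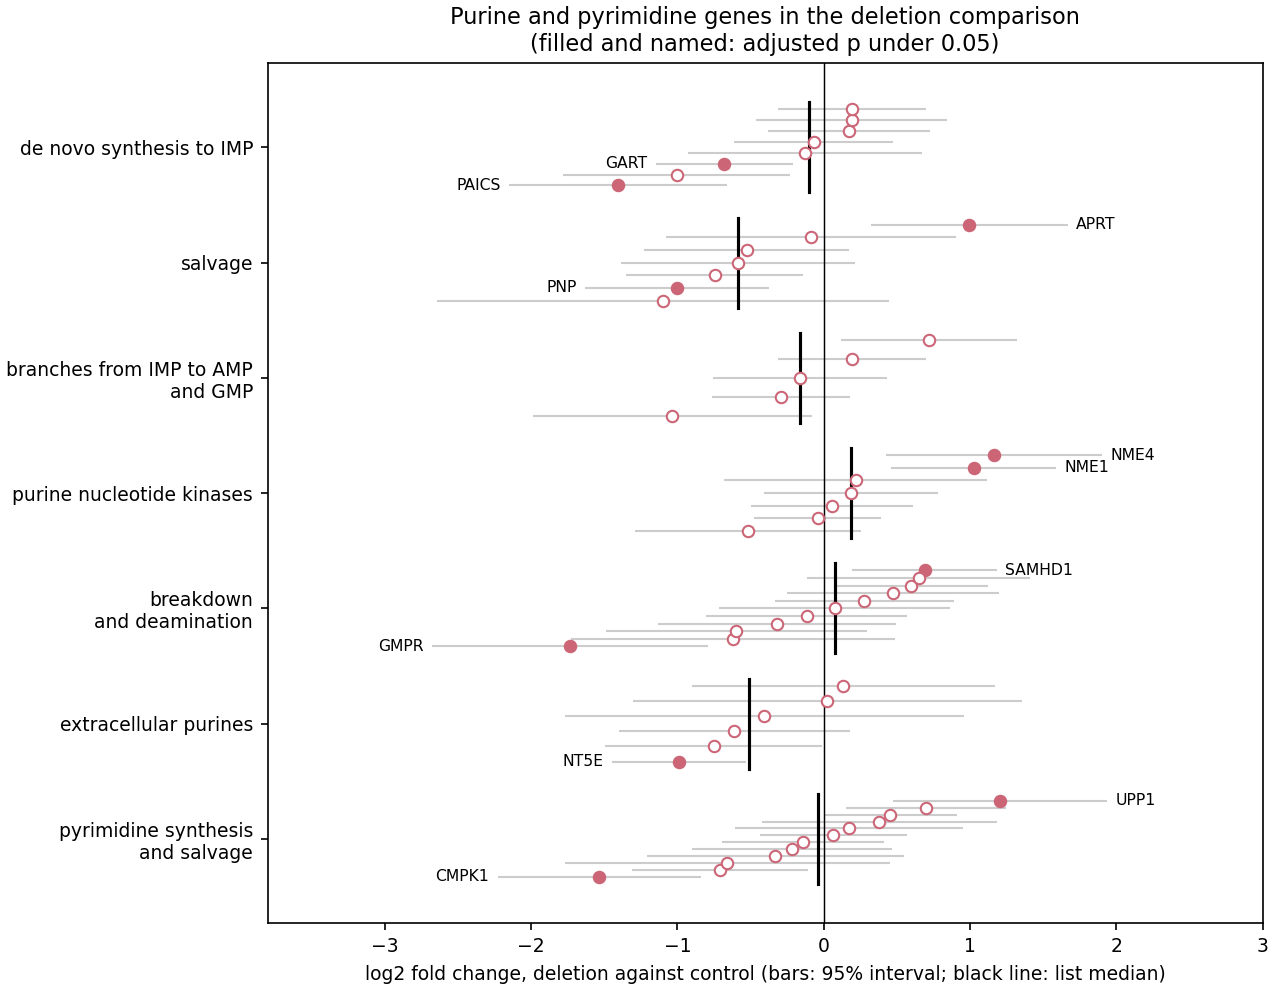
Log2 fold change of deletion against control (points) with 95% intervals (bars) for purine and pyrimidine genes by list, with each list's median as a black line; filled and named points had an adjusted p-value under 0.05. ADSL stands in 2 lists. The 2 kinases that passed lie above 0, and calls in the other purine lists with any are below 0 except APRT and SAMHD1.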

How the data were processed

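Each experiment came as 1 table of the authors' own comparison, without values per library. featureCounts and DESeq2 made the gene counts and the test, per the file headers and names. For each gene the authors deposited the mean of normalised counts and the log2 fold change. Deposited beside these are the standard error, the Wald score, the p-value and its Benjamini-Hochberg adjustment. Per the submitters' processing notes, the build was hg19, and edgeR 3.24.3 is named without a role. The aligner, annotation, filters and strand setting are not given in the sources used here. Reads were single-end, of 86 cycles, per the labels' protocols. The deposited adjusted p-values matched a Benjamini-Hochberg adjustment of the listed p-values. Library depth is unknown, so precision is given by the deposited standard errors. The mean normalised counts summed to 4547160 for siRNA and 5153710 for deletion.

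Computed here with Python 3.11.15, SciPy 1.17.1 and statsmodels 0.14.6 were 95% intervals (normal quantile), implied group means, differences between experiments (normal reference, adjusted over all genes in both), and alternatives: Student t with 6 or 4 degrees of freedom, scaling by the robust SD, centring on genes with a mean of at least 100, a minimum mean of 10, Holm adjustment, and removal of a lowess trend (span 0.3) on GC content. For GC content the GENCODE 29 transcript with the longest 3' UTR was used. The steps were tested on simulated data. The threshold was 0.05 on the adjusted p. The text names the 10 genes, genes of the pathway lists called in either experiment, and the neighbours of HPRT1; CAD, PRPS1, PRPS2 and PFAS were added after their values were seen. Genes with a pattern most like HPRT1 were not named, since each gene has only 1 fold change per experiment. The members and lists were chosen with earlier results of these data known. A gene of the purine kinase list is not reported here and was left out of the list counts. Count models planned for values per library were not run.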

Additional observations from a re-analysis of the deposited data

Results flagged for a closer look

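Over the purine and pyrimidine lists, the effects of the 2 experiments differed by a direct test for 9 of the 55 genes tested in both (deletion minus siRNA, adjusted over all genes tested in both), or 16.4% against 13.7% of all 10891 genes. Of the 43 purine genes 6 differed, and of the 12 pyrimidine genes 3. The experiments also differ in delivery, time and control, which cannot be told apart from the target. PAICS differed by -1.29 (SE 0.40, adjusted p = 0.0183) and APRT by 0.97 (SE 0.36, adjusted p = 0.0499). The salvage gene PNP differed by -0.97 (SE 0.36, adjusted p = 0.0489). The kinases NME1 and NME4 differed by 1.09 (SE 0.30, adjusted p = 0.00791) and 1.25 (SE 0.39, adjusted p = 0.0187). SAMHD1 differed by 0.88 (SE 0.28, adjusted p = 0.0228). Of the pyrimidine genes, CMPK1 differed by -1.53 (SE 0.38, adjusted p = 0.00246) and UPP1 by 1.28 (SE 0.40, adjusted p = 0.0176). CAD, which passed in neither experiment, differed by 1.08 (SE 0.32, adjusted p = 0.0120). With the difference statistics divided by their robust SD, or referred to Student t (10 degrees of freedom), 0 of the 10891 genes differed.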

How the results depend on the processing

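No paired analysis was possible because values per library were not used here; leaving out replicates, the replicate block and other normalisations were not run for the same reason. The siRNA count of 0 purine genes held under all 7 alternatives. For the deletion, 3 genes became 0 under the Student t reference, the robust SD and Holm adjustment, and 1 (PAICS) with either GC trend removed. Genes differing between the experiments went from 2 to 0 under those 3 settings, and to 1 when centred or with either GC trend removed. Over the 6 purine lists, 9 calls after deletion became 0 under the same 3 settings, and the 1 siRNA call became 0 under Student t and Holm. The 9 calls became 8 when centred, 7 with the GC trend of the last 500 bases removed, and 6 with that of the whole transcript. The 0 calls beside HPRT1 became 1 (PHF6) with the whole-transcript GC trend removed. For these count changes the cause was not tested. Values near 0 changed sign: HPRT1 with either GC trend removed (last 500 bases, then whole transcript), to 0.20 and 0.11 for the deletion and 0.20 and 0.12 for the difference; HPRT1 under siRNA with the trend of the last 500 bases removed, to 0.00068; FAM122B and MOSPD1 when centred, to -0.046 and -0.045; and SMIM10 with either trend removed, to 0.081 and 0.042. The median standard error over all genes was 0.41 for the deletion and 0.17 for siRNA.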

Other observations

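The word GTAACAA, which earlier work on these tables had picked as frequent in the 3' UTRs of genes lower under the siRNA, was in the 3' UTR of 0 of the 10 purine genes, against 10.2% of the 10628 genes of the siRNA table with an annotated 3' UTR. That share was not matched for 3' UTR length, which ran from 58 bases in IMPDH2 to 5041 in PAICS. With 10 genes, 0 is also close to that share, so nothing is drawn from it.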
